A study of Homo sapiens with 12 samples.

Results

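The genes described here make and guard the proteins of the endoplasmic reticulum (ER): its chaperones, the disulfide and lectin folding enzymes, the stress sensors of the unfolded protein response, the factors of ER-associated degradation and the channel through which proteins enter. They form a list of 33 genes, found on the array by the gene symbol of each probe set. The list was chosen with earlier results of these data known. Of these, 32 had a probe set of their own, out of 19117 genes on the array, and all 32 were among the 12151 genes tested. MANF and UGGT1 were found under their older names ARMET and UGCGL1, and the probe set of the disulfide isomerase PDIA3 is shared with its pseudogene, so PDIA3 has no value here.

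Proteins of the secretory pathway fold in the ER lumen, where Hsp70-type and Hsp90-type chaperones hold unfolded chains, disulfide isomerases pair cysteines, and the lectins calnexin and calreticulin keep glycoproteins in a folding cycle. When unfolded protein builds up, the sensors IRE1, PERK and ATF6 slow translation and raise the transcription of chaperone and degradation genes. Chains that do not fold have their mannose trimmed by EDEM proteins, are read by lectins such as OS9, and leave through the SEL1L and HRD1 complex to be ubiquitinated and destroyed by the proteasome.

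Transcript levels came from arrays of total RNA from monolayers of MDA-MB-231, a human cell line derived from breast cancer, kept in RPMI medium with fetal calf serum. There were 4 groups of 3 samples. One group was untreated, and one had 0.1 mM 5-ALA (5-aminolevulinic acid, the precursor from which cells make heme) and no siRNA. The other two had 0.1 mM 5-ALA with 15 nM of FECH siRNA, or with 15 nM of Allstar siRNA as control. FECH is ferrochelatase, the enzyme that puts iron into protoporphyrin at the last step of heme synthesis, so the main question was what its silencing does to cells supplied with 5-ALA. The labels do not say whether replicates were separate cultures, so a p-value reflects only how these samples spread, and that spread may be technical.

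The FECH siRNA was a single sequence, shown because every FECH siRNA value below rests on it, and effects of losing FECH and other effects of this sequence cannot be told apart in this design.
FECH siRNA: gaauauccucuugguuccg

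All levels below are log2 signals, and a difference is a difference of mean log2 signals. Tests used limma over all genes with Benjamini-Hochberg adjustment, and a gene rose or fell where the adjusted p was below 0.05. FECH itself was at 8.55 ± 0.05 (SD, n = 3) with control siRNA and 6.53 ± 0.09 with FECH siRNA, a signal 4.06-fold lower, and at 8.49 ± 0.09 untreated and 8.50 ± 0.12 with 5-ALA only. Genes were tested when above a level of 7.29 on at least 3 arrays. FECH was below that level on 0 of 9 other arrays and on all 3 FECH siRNA arrays, so its fold is a ratio of signals of which the lower is dim. The mesenchymal markers VIM, CD44, AXL, CAV1 and MSN were above this level on all 12 arrays, and the hormone receptors ESR1 and PGR on 0. The 5 mesenchymal log2 signals summed to 63.32 to 63.59 with FECH siRNA, 63.48 to 63.79 with control siRNA, 63.86 to 64.21 with 5-ALA only and 63.69 to 64.28 untreated. Of these genes only MSN passed a limma test in any comparison, with means of 11.61 with FECH siRNA, 11.89 with control siRNA, 12.22 with 5-ALA only and 12.26 untreated. ERBB2, EPCAM and GATA3 were above it on 12 arrays and CDH1 on 7. Of 4 markers of blood and endothelium, PTPRC, CD3E and VWF were above it on 0 arrays and PECAM1 on 11. The log2 signals of these 4 summed to 24.01 to 24.46 with FECH siRNA and 25.29 to 25.50 with control siRNA, 24.78 to 25.16 with 5-ALA only and 24.99 to 25.25 untreated. PECAM1 alone made that shift, with means of 7.24 with FECH siRNA and 8.47 with control siRNA, while PTPRC, CD3E and VWF differed by less than 0.1. The part of these markers in the results was not tested. In untreated replicate 3, 416 genes lay over 0.5 from the mean of the other two replicates, but 0 members did. By the same measure, 1 member did in FECH siRNA replicate 1 (25 genes) and 1 in FECH siRNA replicate 3 (61 genes). The samples are bulk RNA, so fewer cells of a kind and less RNA per cell cannot be told apart.

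With FECH siRNA against control siRNA, 3 members rose and 5 fell. The falls were deep in DNAJB11, a co-chaperone of the ER chaperone BiP, and in EDEM3, a mannosidase that marks glycoproteins for destruction, and moderate in its relative EDEM2. The sensor PERK (EIF2AK3) rose most, at 1.30-fold. The 8 called members were 25% of the 32, against 38.3% of all genes tested, so as a list the members were not called more often than other genes. By direction, 9.38% of members rose against 20.4% of all genes, and 15.6% fell against 17.8%. Past 1.5-fold were DNAJB11, EDEM3 and EDEM2, all lower, or 9.38% of members, where 4.81% of all genes were lower by that much. In 15 of 32 members the 3 FECH siRNA arrays did not overlap the 3 control siRNA arrays, against 51.2% of all genes. The median difference of the members was -0.02. The other 24 members differed by -0.19 to 0.28, with limma adjusted p from 0.0567 to 0.94. With the 3 runs of numbers in the sample titles as a block, 13 members were called, 7 higher and 6 lower, or 40.6% against 46.8% of all genes.

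**Figure D1:**
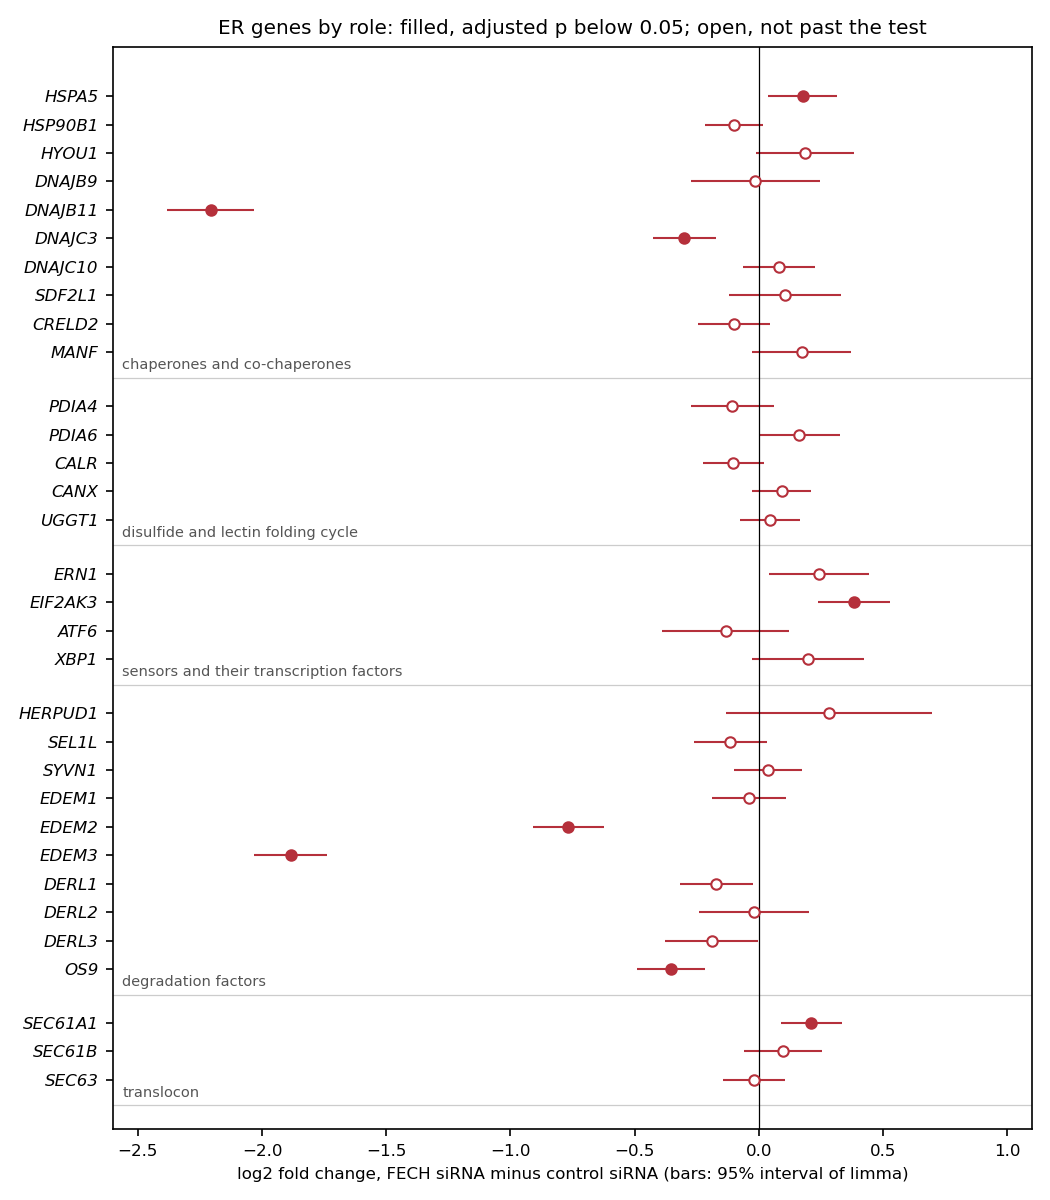
Difference in mean log2 signal between FECH siRNA and control siRNA (both with 5-ALA, n = 3 each) for the 32 members, in rows by role, with 95% intervals from limma. DNAJB11 and EDEM3 lie near -2 and EDEM2 at -0.77, while most other members lie close to 0.

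Among the 10 chaperones and co-chaperones, DNAJB11 and DNAJC3 fell and HSPA5 rose (30% called, against 38.3% of all genes tested). DNAJB11 (ERdj3) is a soluble J-domain protein that delivers unfolded chains to BiP. Its log2 signal was 7.71, 7.89 and 7.76 with FECH siRNA and 10.13, 9.97 and 9.88 with control siRNA. It was 9.86, 9.93 and 10.07 with 5-ALA only and 10.01, 9.85 and 9.96 untreated. The 3 FECH siRNA arrays thus stood far below the other 9, which overlapped one another. The difference from control siRNA was -2.21 (SE 0.08, 95% interval -2.38 to -2.03, limma adjusted p = 1.72e-09), a level 4.62-fold lower. Among all 12151 genes it had rank 2 from the lowest difference. The FECH siRNA mean of 7.79 was the lowest group mean of any member and still above the level of 7.29.

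DNAJC3, a J-domain protein that binds BiP and is also known as an inhibitor of PERK, fell less. It was at 9.36, 9.30 and 9.39 with FECH siRNA and at 9.71, 9.61 and 9.62 with control siRNA. Arrays with 5-ALA only read 9.73, 9.68 and 9.83, and untreated arrays 9.66, 9.69 and 9.66. Again the 3 FECH siRNA arrays were the lowest of the 12, by a smaller gap than in DNAJB11. The difference was -0.30 (SE 0.06, limma adjusted p = 0.00112), or 1.23-fold.

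HSPA5 encodes BiP, the main Hsp70 chaperone of the ER and the best known readout of the unfolded protein response. It was at 13.26, 13.28 and 13.42 with FECH siRNA and at 13.07, 13.17 and 13.18 with control siRNA. With 5-ALA only it was at 13.22, 13.29 and 13.37, and untreated at 13.22, 13.25 and 13.29. FECH siRNA arrays were above the control siRNA arrays but overlapped the arrays without siRNA, which makes the control siRNA group the low one. The rise over control siRNA was 0.18 (SE 0.06, 95% interval 0.04 to 0.32, limma adjusted p = 0.0447), or 1.13-fold, and the difference from 5-ALA only was 0.03 (adjusted p = 0.80). The call was lost in 11 of 22 alternatives, 8 of which left out 1 array. The limma adjusted p was 0.169 without FECH siRNA replicate 3, 0.0655 without FECH siRNA replicate 2, and 0.144, 0.0705 and 0.0569 without control siRNA replicate 1, 2 or 3. It was 0.0527 and 0.0573 without untreated replicate 1 or 2 and 0.0592 without 5-ALA only replicate 2. With the runs as a block the limma adjusted p was 0.009.

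The other 7 chaperones and co-chaperones did not pass this test. HYOU1, the large Hsp70-type exchange factor of BiP, was at 10.86 ± 0.11 with FECH siRNA and 10.67 ± 0.13 with control siRNA. The difference of 0.19 had the same sign in all 3 runs (0.14, 0.27 and 0.15), with a limma adjusted p of 0.128, or 0.00706 with the runs as a block. MANF, a stress-induced protein that binds BiP, differed by 0.17 (limma adjusted p = 0.161, or 0.0193 with the block). HSP90B1, the Hsp90 of the ER, was at 12.97, 12.97 and 13.02 with FECH siRNA, below all 3 control siRNA arrays at 13.09, with a difference of -0.10 (adjusted p = 0.165). The J-domain proteins DNAJB9 and DNAJC10 differed by -0.01 and 0.08, SDF2L1, which works with DNAJB11, by 0.11, and the ER-resident CRELD2 by -0.10, with limma adjusted p from 0.262 to 0.94. The 95% intervals of these 7 genes lay within -0.27 to 0.38.

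In the disulfide and lectin cycle none of the 5 tested members rose or fell against control siRNA, where 38.3% of all genes did. The lectins CALR and CANX differed by -0.10 and 0.09. UGGT1, the glucosyltransferase that returns misfolded glycoproteins to those lectins, differed by 0.04. Of the isomerases, PDIA4 differed by -0.11 and PDIA6 by 0.16, with limma adjusted p of 0.304 and 0.108. PDIA6 was at 12.07, 12.04 and 12.20 with FECH siRNA and at 11.92, 11.87 and 12.03 with control siRNA. Its FECH siRNA arrays lay just above the control siRNA arrays, and with the runs as a block its limma adjusted p was 0.0101.

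Of the 4 sensors and their factors, PERK rose (25% called, against 38.3% of all genes tested). EIF2AK3 encodes PERK, the kinase that slows translation by phosphorylating eIF2 alpha. It was at 9.25, 9.33 and 9.24 with FECH siRNA and at 8.95, 8.80 and 8.93 with control siRNA. Cells with 5-ALA only gave 9.02, 9.12 and 9.19, and untreated cells 9.05, 8.97 and 9.10. The FECH siRNA arrays were the 3 highest and the control siRNA arrays the 3 lowest, with the arrays without siRNA in between. The rise over control siRNA was 0.38 (SE 0.07, limma adjusted p = 4.54e-04). Over 5-ALA only the difference was 0.16 (adjusted p = 0.0682, or 0.0477 with the runs as a block, and 0.0476 without 5-ALA only replicate 3).

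The other sensors did not pass. ERN1 encodes IRE1, which splices the messenger RNA of the factor XBP1. It was at 9.48, 9.60 and 9.73 with FECH siRNA and at 9.33, 9.27 and 9.49 with control siRNA. These arrays overlapped slightly, and the difference of 0.24 had a limma adjusted p of 0.0567, or 0.0476 with the runs as a block. That p was 0.0377 without FECH siRNA replicate 1, 0.031 without untreated replicate 3 and 0.0342 without control siRNA replicate 3. XBP1 differed by 0.20 (95% interval -0.03 to 0.42, adjusted p = 0.154), and a signal over the whole gene does not separate spliced from unspliced XBP1. ATF6, the sensor that is cut in the Golgi to free a transcription factor, differed by -0.13 (95% interval -0.39 to 0.12, adjusted p = 0.406).

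Of the 10 degradation factors, EDEM3, EDEM2 and OS9 fell and none rose. The called share was 30%, against 38.3% of all genes tested, of which 17.8% fell and 20.4% rose. EDEM3 was at 8.02, 8.12 and 7.93 with FECH siRNA and at 9.93, 9.89 and 9.89 with control siRNA. With 5-ALA only it was at 10.03, 9.98 and 10.06, and untreated at 10.03, 9.84 and 10.02. The FECH siRNA arrays stood alone at the bottom. The difference was -1.88 (SE 0.07, 95% interval -2.03 to -1.74, limma adjusted p = 1.72e-09), a level 3.69-fold lower and rank 7 from the lowest of all genes tested.

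EDEM2, thought to start the trimming of mannose, was at 8.00, 8.14 and 8.14 with FECH siRNA and at 8.95, 8.84 and 8.79 with control siRNA. With 5-ALA only it was at 9.09, 9.00 and 8.92, and untreated at 9.03, 8.97 and 8.99. Its FECH siRNA arrays were also the 3 lowest, with a smaller gap than in EDEM3. The difference was -0.77 (SE 0.07, limma adjusted p = 1.32e-06), or 1.70-fold lower.

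OS9, the lectin that reads trimmed mannose, was at 10.08, 10.12 and 10.21 with FECH siRNA and at 10.56, 10.41 and 10.50 with control siRNA. Arrays with 5-ALA only read 10.36, 10.49 and 10.47, and untreated arrays 10.36, 10.44 and 10.36. The FECH siRNA arrays were again the 3 lowest. OS9 fell by 0.35 on the log2 scale (SE 0.06, limma adjusted p = 5.62e-04), or 1.28-fold.

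EDEM1, the third of the family, showed another pattern. It was at 9.30, 9.34 and 9.34 with FECH siRNA and at 9.45, 9.29 and 9.37 with control siRNA. Without siRNA it was at 9.76, 9.92 and 9.82 with 5-ALA and untreated at 9.89, 9.73 and 9.93. Both siRNA groups were thus low and overlapped each other, and the 6 arrays without siRNA were high. FECH siRNA and control siRNA differed by -0.04 (95% interval -0.19 to 0.11, limma adjusted p = 0.699).

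The membrane complex of the pathway did not pass the test against control siRNA. SEL1L, the adaptor, and SYVN1, the ubiquitin ligase HRD1, differed by -0.12 and 0.04. The channel proteins DERL1, DERL2 and DERL3 differed by -0.17, -0.02 and -0.19. For DERL1, all 3 FECH siRNA arrays (11.72, 11.60 and 11.58) lay below the control siRNA arrays (11.85, 11.82 and 11.74). Its limma adjusted p was 0.0619, or 0.00906 with the runs as a block and 0.0395 without FECH siRNA replicate 1. DERL3 had an adjusted p of 0.105, or 0.0331 without FECH siRNA replicate 3. HERPUD1, the stress-induced scaffold of that complex, varied most between replicates, at 11.05, 11.24 and 11.90 with FECH siRNA and 10.96, 11.01 and 11.37 with control siRNA. Its highest array was FECH siRNA replicate 3, the groups overlapped, and the difference of 0.28 had a 95% interval of -0.13 to 0.70.

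Of the 3 translocon genes, SEC61A1 rose (33.3% called, against 38.3% of all genes tested). It encodes the channel through which new proteins enter the ER. It was at 12.34, 12.33 and 12.34 with FECH siRNA and at 12.19, 12.05 and 12.13 with control siRNA. With 5-ALA only it was at 12.16, 12.13 and 12.13, and untreated at 12.16, 12.05 and 12.15. The FECH siRNA arrays were the 3 highest and nearly equal. The rise was 0.21 (SE 0.06, limma adjusted p = 0.00941), or 1.16-fold. SEC61B, another subunit, differed by 0.10, and SEC63, which brings BiP to the channel, by -0.02, with limma adjusted p of 0.323 and 0.82.

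**Figure D2:**
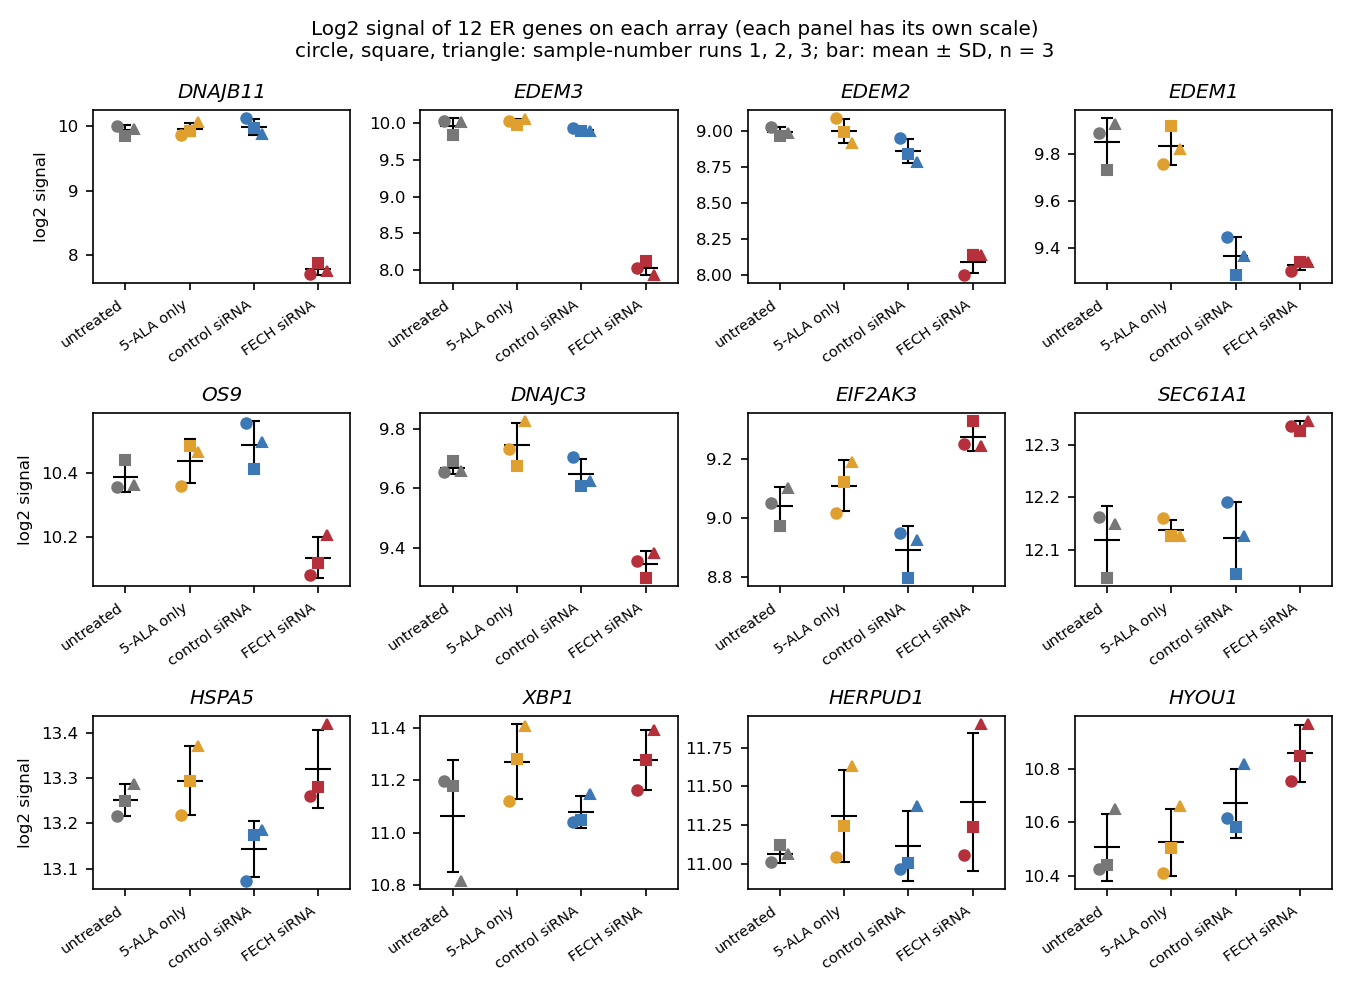
Log2 signal of 12 members on each of the 12 arrays, by group, with the mean and SD of each group (n = 3). Circles, squares and triangles mark runs 1, 2 and 3 of the numbers in the sample titles. DNAJB11, EDEM3 and EDEM2 are low on the 3 FECH siRNA arrays, and EDEM1 is low in both siRNA groups.

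The control siRNA was set against 5-ALA only to see what transfection with an siRNA that has no intended target goes with. Only EDEM1 fell, by 0.46 on the log2 scale (SE 0.07, limma adjusted p = 0.00154), or 1.38-fold, with run differences of -0.31, -0.63 and -0.45. The other 31 members did not pass the test, with differences from -0.24 in DNAJB9 to 0.15 in HYOU1. This 1 called member was 3.12% of the 32, against 6.2% of all genes, and 3.68% of all genes fell. With each array centred on its median, 169 genes rose and 537 fell, where 306 rose and 447 fell without it. EIF2AK3 was at a difference of -0.22 (adjusted p = 0.0723, or 0.0383 with the runs as a block, which then called 2 members, 6.25% against 13.6% of all genes). ERN1 differed by -0.22 and HSPA5 by -0.15, with adjusted p of 0.20 and 0.197. These 3 genes thus had control siRNA means both below the 5-ALA means and below the FECH siRNA means. This was not particular to them, since other members, among them XBP1, HERPUD1 and MANF, had the same order of means.

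Against 5-ALA only, FECH siRNA left 3 members higher and 7 lower. These comparisons share arrays with those above, so their values are given side by side. Called members were 31.2% of the 32, against 37% of all genes; 9.38% rose against 19.5% of all genes, and 21.9% fell against 17.5%. DNAJB11 was 4.50-fold and EDEM3 4.00-fold lower here, against 4.62-fold and 3.69-fold lower in the comparison with control siRNA. EDEM2 was 1.88-fold lower against 1.70-fold. OS9 and DNAJC3 had differences of -0.30 and -0.40, against -0.35 and -0.30. Those 5 genes fell and SEC61A1 rose in both comparisons, which made them the members whose call was the same with either reference.

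Other members passed against 1 reference only, and the 2 references themselves were compared above. EDEM1 fell by 0.50 on the log2 scale against 5-ALA only (limma adjusted p = 7.22e-05). DERL1 fell by 0.19 (adjusted p = 0.0445), a call lost in 10 of 22 alternatives. Of those, leaving out 5-ALA only replicate 1 or 2 gave 0.168 or 0.0684, FECH siRNA replicate 2 or 3 gave 0.131 or 0.137, control siRNA replicate 1 or 2 gave 0.0511 or 0.056, and untreated replicate 2 gave 0.0546.

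HYOU1 rose by 0.33 against 5-ALA only (SE 0.09, limma adjusted p = 0.0111). Its FECH siRNA arrays at 10.76, 10.85 and 10.97 lay above those with 5-ALA only at 10.41, 10.50 and 10.66. The call was lost without 5-ALA only replicate 1 (adjusted p = 0.0536) or FECH siRNA replicate 3 (0.0518). PDIA6 rose by 0.26 (SE 0.08, limma adjusted p = 0.0161), a call lost without 5-ALA only replicate 1 or 2 (0.0525 and 0.0643) or FECH siRNA replicate 3 (0.0717). With the runs as a block, 15 members passed, 5 higher and 10 lower, or 46.9% against 45.6% of all genes. The 5 added by the block were EIF2AK3 (higher) and SEC61B (higher), and DERL2, DNAJB9 and HSP90B1 (lower). HSP90B1 was at an adjusted p of 0.056 without the block and 0.0336 with it, and at 0.0439 without untreated replicate 3.

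**Figure D3:**
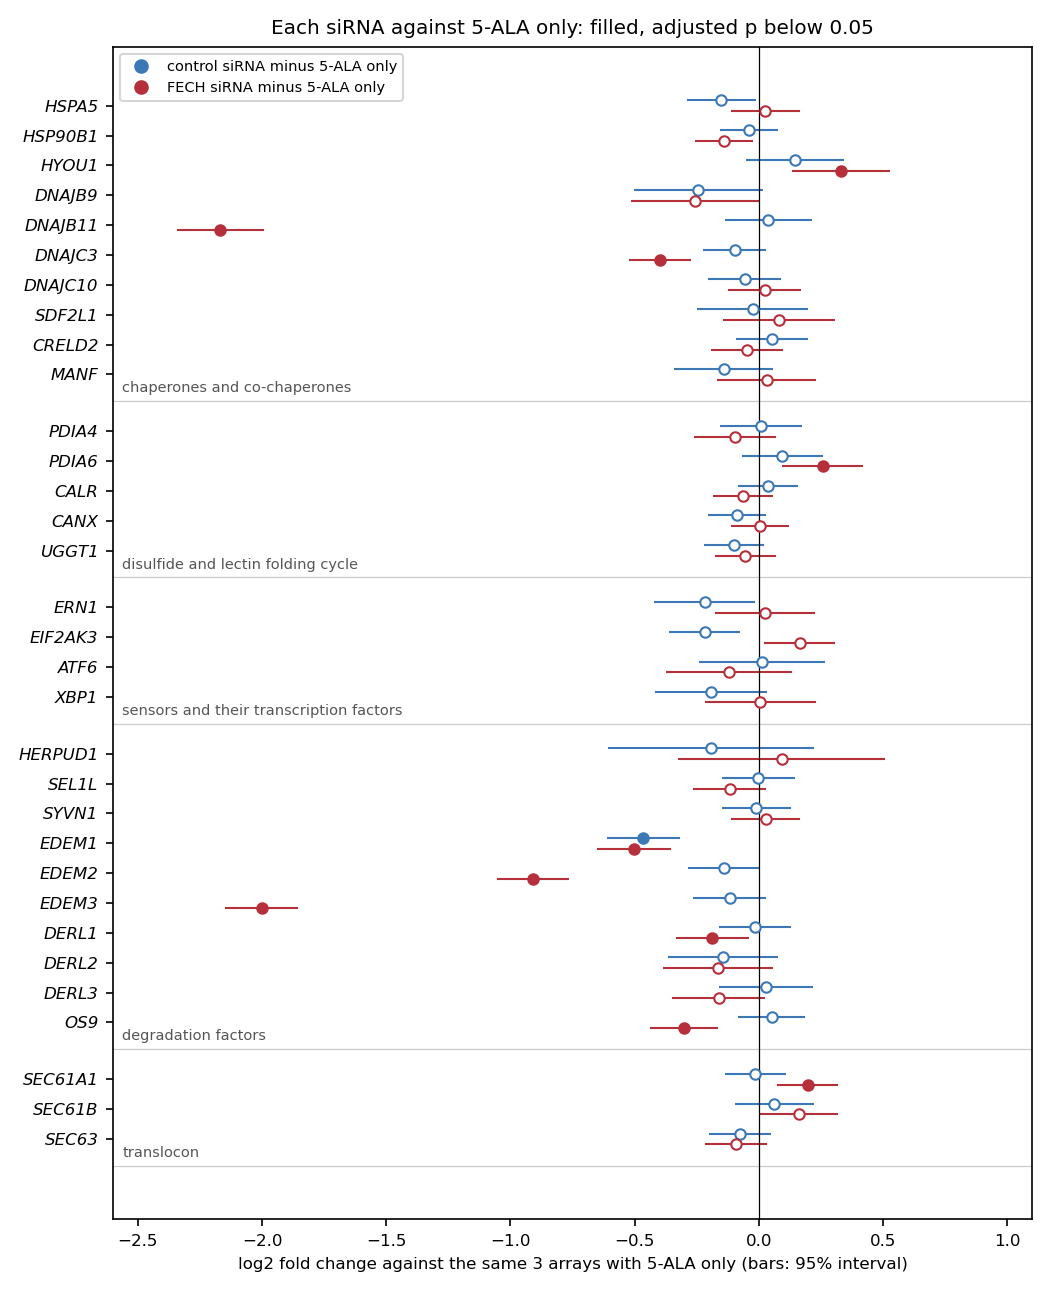
Difference in mean log2 signal from 5-ALA only for each of the 32 members, with control siRNA and with FECH siRNA (n = 3 per group, 95% intervals from limma). EDEM1 lies at -0.46 and -0.50 with both siRNAs, while DNAJB11, EDEM3 and EDEM2 are low with FECH siRNA and near 0 with control siRNA.

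Adding 5-ALA alone to untreated cells gave no member past the test. By limma, 0 of 32 members passed after adjustment, where 0.0165% of all genes did, and 0 of 32 had an unadjusted p below 0.05, where 2.82% of all genes did. The differences ran from -0.07 in DERL3 to 0.24 in HERPUD1. In XBP1 the 5-ALA arrays were at 11.12, 11.28 and 11.41 and the untreated arrays at 11.20, 11.18 and 10.82. The groups overlapped, and untreated replicate 3 was the low one. The difference of 0.21 had a 95% interval of -0.02 to 0.43 and was -0.07, 0.10 and 0.59 in the 3 runs. DNAJB11 and EDEM3 differed by 0.01 and 0.06, and HSPA5 by 0.04 (95% interval -0.10 to 0.18).

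Some members differed between runs in the same way in every group. ATF6 was highest in run 3 of each group, at 11.48 untreated, 11.52 with 5-ALA only, 11.57 with control siRNA and 11.41 with FECH siRNA. HYOU1 was likewise highest in run 3 of each group, at 10.65, 10.66, 10.82 and 10.97. DERL1 was highest in run 1 of each group. The SD within a group had a median of 0.081 over members and groups, and its highest value was 0.45, for HERPUD1 with FECH siRNA.

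**Figure D4:**
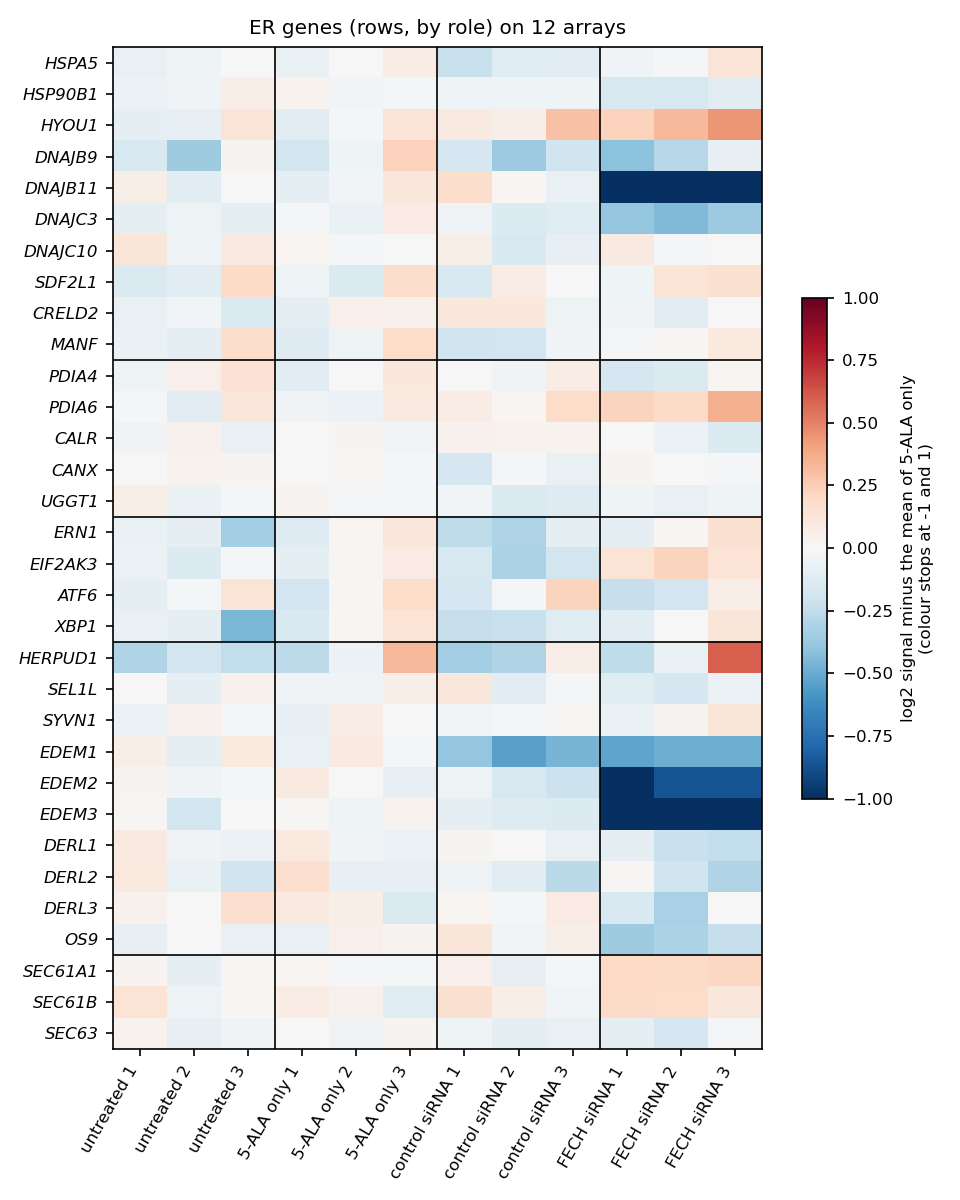
Log2 signal of each of the 32 members on each array, minus the mean of that member with 5-ALA only, on a colour scale that stops at -1 and 1. Rows are ordered by role. The falls of DNAJB11, EDEM3 and EDEM2 fill the 3 FECH siRNA columns, and the smaller fall of EDEM1 fills all 6 siRNA columns.

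Promoters were read because these genes are known to share elements through which ATF6 and XBP1 act. The windows ran from 250 bases before to 50 bases after each start in the RefSeq table (GRCh38.p14), with 37 windows for 30 members and none for PDIA3, DERL1 and DERL3. Both strands were searched for the ER stress element (ERSE, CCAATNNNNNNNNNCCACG), for its second form (ERSE-II, ATTGGNCCACG) and for the core of the unfolded protein response element (TGACGTGG). The ERSE was in 9 of the 37 member windows, which belong to 7 of the 30 members, and in 27 of 35116 windows of all genes (0.0769%). The ERSE-II was in 3 of the 37 member windows and in 19 of all windows (0.0541%), and the core element in 2 of the 37 and in 256 of all windows (0.729%). The promoter of HSPA5 is printed as the member with an ERSE that rose, with the match in capitals, followed by those of DNAJB11 and EDEM3, the members with the deepest falls, in which these letters were not found.
HSPA5, chr9:125241294-125241593, minus strand: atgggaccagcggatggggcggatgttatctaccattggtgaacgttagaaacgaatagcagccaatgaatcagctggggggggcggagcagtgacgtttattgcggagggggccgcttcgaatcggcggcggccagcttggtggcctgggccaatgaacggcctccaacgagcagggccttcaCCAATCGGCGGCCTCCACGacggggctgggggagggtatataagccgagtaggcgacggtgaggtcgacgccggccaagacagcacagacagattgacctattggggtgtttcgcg
DNAJB11, chr3:186570470-186570769, plus strand: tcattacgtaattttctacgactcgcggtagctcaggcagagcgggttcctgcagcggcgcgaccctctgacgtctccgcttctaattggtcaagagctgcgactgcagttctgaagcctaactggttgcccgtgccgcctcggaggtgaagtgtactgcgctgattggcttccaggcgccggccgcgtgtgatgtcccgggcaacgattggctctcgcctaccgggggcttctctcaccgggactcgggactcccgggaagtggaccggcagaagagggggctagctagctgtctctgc
EDEM3, chr1:184754809-184755108, minus strand: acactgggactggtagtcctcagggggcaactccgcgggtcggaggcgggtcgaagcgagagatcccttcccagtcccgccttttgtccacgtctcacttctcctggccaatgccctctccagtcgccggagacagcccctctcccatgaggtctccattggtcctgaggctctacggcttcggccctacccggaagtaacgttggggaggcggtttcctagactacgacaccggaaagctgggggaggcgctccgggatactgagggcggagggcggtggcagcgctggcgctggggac

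The matches in other members are shown to let them be compared letter by letter, with the fixed letters in capitals and the free letters in lower case, each written along the strand of the match.
HSP90B1, chr12:103930216-103930234, plus strand: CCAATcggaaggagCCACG
HSP90B1, chr12:103930321-103930339, minus strand: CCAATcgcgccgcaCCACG
CALR, chr19:12938384-12938402, minus strand: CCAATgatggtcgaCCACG
CANX, chr5:179698778-179698796, plus strand: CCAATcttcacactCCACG
PDIA6, chr2:10812853-10812871, minus strand: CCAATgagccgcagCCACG
XBP1, chr22:28800603-28800621, minus strand: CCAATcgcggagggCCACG
CRELD2, chr22:49918554-49918572, minus strand: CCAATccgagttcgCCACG
HYOU1, chr11:119057380-119057390, plus strand: ATTGGaCCACG
HYOU1, chr11:119057274-119057284, plus strand: ATTGGaCCACG
HERPUD1, chr16:56932025-56932035, plus strand: ATTGGgCCACG
SDF2L1, chr22:21642114-21642124, minus strand: ATTGGtCCACG

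The core element was in HYOU1, where it overlaps an ERSE-II, and in DNAJC10. Of the 10 members with an ERSE or ERSE-II in a window, HSPA5 rose against control siRNA and 0 fell, 7 had a positive difference, and the differences ran from -0.10 to 0.28 with a median of 0.13. Of the 20 members with a window and neither element, EIF2AK3 and SEC61A1 rose, the 5 falling members fell, and 8 had a positive difference. The differences of the 20 ran from -2.21 to 0.38 with a median of -0.02. All 5 members that fell against control siRNA were thus in the larger group, without these letters in the window, and the 2 groups overlapped. Of all genes tested, 20.4% rose and 17.8% fell in that comparison, so few falls would be looked for among 10 genes of any kind. With FECH siRNA against 5-ALA only, HYOU1 and PDIA6 rose among the 10, 0 fell, 7 were positive, and the median was 0.02. HSPA5 differed by 0.03 there. Among the 20, 1 rose and 6 fell, 7 were positive, and the median was -0.11. Of all genes tested, 19.5% rose and 17.5% fell against 5-ALA only. This is a description of 30 genes with no test, and the search was added after the changes of the members were known. Only exact letters inside the windows were counted, so a member without a match may still hold a variant or more distant element.

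**Figure D5:**
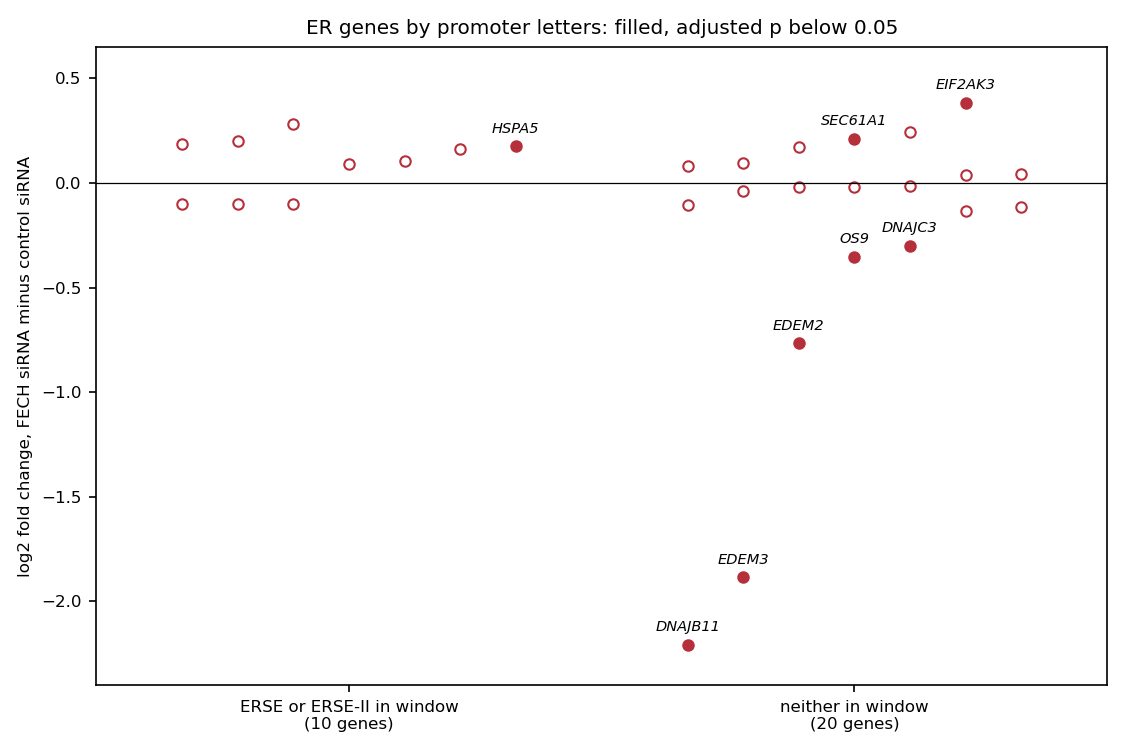
Difference in mean log2 signal between FECH siRNA and control siRNA for 10 members with an ERSE or ERSE-II in the promoter window and 20 members with a window and neither. Each point is 1 gene, and the line marks a difference of 0. The medians, which are not drawn, were 0.13 and -0.02.

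The rest of the ER machinery was read from lists of other genes, with the same test of FECH siRNA against control siRNA. The background was again 38.3% of all genes called, with 20.4% higher and 17.8% lower. Among 22 other folding enzymes, 1 rose (4.55%) and 8 fell (36.4%), with a median difference of -0.12. The calcium-binding CALU was 2.47-fold lower (limma adjusted p = 5.11e-08). GANAB, the glucosidase subunit that trims glucose so that glycoproteins can enter the lectin cycle, fell by 1.19 on the log2 scale (limma adjusted p = 1.37e-08). The oxidase ERO1B fell by 0.69, but both its means, 6.48 and 7.17, lay below the level of 7.29, so its fold is only a ratio of dim signals.

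Among 21 other degradation factors, 3 rose (14.3%) and 4 fell (19%), with a median of 0.00. ERLEC1, a lectin related to OS9, was at 8.92, 8.82 and 8.93 with FECH siRNA and at 9.75, 9.75 and 9.66 with control siRNA. It was thus low on every FECH siRNA array, 1.78-fold lower on average (limma adjusted p = 2.14e-06). FAF2, which recruits the extracting ATPase to the ER, fell by 0.63. UBE2G2, a ubiquitin-conjugating enzyme of the pathway, rose by 0.82 over control siRNA (limma adjusted p = 1.07e-06) but by 0.31 over 5-ALA only (adjusted p = 0.00367), since it fell by 0.52 in control siRNA against 5-ALA only (adjusted p = 8.68e-04).

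Of 10 tested subunits of the oligosaccharyltransferase, which attaches the glycan to new chains, RPN1 and STT3B fell (20%) and none rose. RPN1 was 1.69-fold lower (limma adjusted p = 2.10e-06) and STT3B fell by 0.56 (adjusted p = 1.62e-05). Of 18 other translocation genes, 3 rose (16.7%) and 1 fell (5.56%). Both subunits of the receptor for the signal recognition particle rose over control siRNA, SRPRB by 0.83 (limma adjusted p = 4.82e-06) and SRPRA by 0.37 (adjusted p = 3.02e-04). Over 5-ALA only they rose by 0.51 (adjusted p = 3.20e-04) and 0.19 (adjusted p = 0.024), since the control siRNA means were below the 5-ALA means by 0.32 and 0.18 (adjusted p = 0.042 and 0.104). The smaller SRPRA rise was lost without 5-ALA only replicate 1 or 3 (0.0704 and 0.0621) or FECH siRNA replicate 3 (0.0929), and under median centring of the arrays (0.0536). The SRPRB difference between control siRNA and 5-ALA only was lost in 9 of 22 alternatives, with limma adjusted p of up to 0.165. Of these, 7 left out 1 array, namely 5-ALA only replicate 1, 2 or 3, control siRNA replicate 2 or 3, or FECH siRNA replicate 1 or 2. SSR1, a translocon-associated protein, fell by 0.36 against control siRNA (limma adjusted p = 0.00177).

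Of 14 other regulators and outputs of the unfolded protein response, 4 rose (28.6%) and 3 fell (21.4%). PPP1R15A, which undoes the action of PERK on translation, was at 11.97, 12.16 and 12.32 with FECH siRNA and at 11.05, 10.89 and 11.15 with control siRNA. The FECH siRNA arrays were all higher, by 1.12 on average (SE 0.24, limma adjusted p = 0.00208), or 2.18-fold. Over 5-ALA only, PPP1R15A rose by 0.89 (limma adjusted p = 0.00929). DDIT3, which encodes the stress factor CHOP, was at 10.93, 11.20 and 11.17 with FECH siRNA and 10.05, 10.07 and 10.19 with control siRNA, 2.00-fold higher (limma adjusted p = 0.0105). Over 5-ALA only it differed by 0.76 (limma adjusted p = 0.0442), with groups that did not overlap and run differences of 0.67, 0.72 and 0.89. That call was lost in 12 of 22 alternatives, among them leaving out any 1 of the 9 arrays with 5-ALA (limma adjusted p from 0.0538 to 0.119). Untreated replicate 3 was low for both genes, at 9.98 for PPP1R15A and 8.98 for DDIT3. The SD of DDIT3 was 0.82 untreated, 0.12 with 5-ALA only, 0.15 with FECH siRNA and 0.07 with control siRNA. The limma fit used 1 spread for all groups, so the untreated arrays also widened the DDIT3 comparisons without them. MBTPS2, the protease that completes the release of ATF6, fell by 0.60 against control siRNA (limma adjusted p = 4.60e-04) and by 1.04 against 5-ALA only (adjusted p = 4.31e-06). It also fell by 0.45 with control siRNA against 5-ALA only (limma adjusted p = 0.0226). That last call was lost without 5-ALA only replicate 1 or 2 (0.0885 and 0.0624) or control siRNA replicate 2 or 3 (0.0576 and 0.0869). In the comparison of 5-ALA with untreated cells, 0 of these 85 other ER genes passed the limma test, where 0.0165% of all genes did. Of the 85, 0 had an unadjusted p below 0.05, where 2.82% of all genes did.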

How the data were processed

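Signals of 28869 probe sets on 12 arrays were used. Per the submitters' processing notes, the authors made them with RMA and oligo. Tool versions and the build were not given in the sources used here. As deposited, each value is a linear intensity between 21.0 and 23641. Log2 values had been foreseen, so these were computed first (pseudocount 0), without another normalization. The workbook holds 12 further per-sample columns, which were not used.

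Probe sets with 1 gene symbol (19937) were kept. Of these, 19309 took the RefSeq symbol of their Entrez gene number, whether or not it differed from the deposited symbol. Genes had to exceed 7.29, the median of all probe sets, on 3 arrays. Each gene was read from its probe set of highest mean. All 12 arrays entered 1 fit of the 4 group means in limma 3.58.1 (R 4.3.3), with eBayes defaults, two-sided p-values and Benjamini-Hochberg adjustment within a comparison at 0.05. The code was tested on simulated data. The tables used hold no detection values, and the number of arrays limits the precision.

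The members, lists, tests and promoter motifs were chosen with earlier results of these data known. The genes named are all members, FECH, and up to 3 called genes with the largest change from each list of other ER genes. One marker gene is not reported here. Sequences other than the siRNA are from RefSeq (GRCh38.p14).

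The titles number the samples 1 to 12, and each run of 4 numbers holds all 4 groups. Deviations from the group means correlated across groups at 0.207 to 0.539 within a run and -0.436 to 0.154 between runs, so the runs pair the samples. The 22 alternatives were 10 other settings and 12 fits that each left out 1 array. The settings were 2 other scalings, 2 filters, another variance model, the block, array weights, another probe set rule, the deposited value table and only the groups compared. A 1.5-fold limit was applied to the counts only and is not among the 22.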

Additional observations from a re-analysis of the deposited data

How the results depend on the processing

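Against control siRNA, 7 of the 8 called members kept their call in all 22 alternatives, HSPA5 lost it in 11, and 6 of the 24 others gained one in some. No called direction reversed. With the 3 runs of numbers in the titles as a replicate block, 13 members were called against control siRNA, 2 for control siRNA against 5-ALA only (1652 genes) and 15 for FECH siRNA against 5-ALA only. It changed no member call beyond those given in the report. Cyclic loess and array weights also gave 2 members for control siRNA against 5-ALA only. Also requiring 1.5-fold left 3 members (1102 genes) for FECH siRNA against control siRNA, 0 (74 genes) for control siRNA against 5-ALA only and 3 (1037 genes) for FECH siRNA against 5-ALA only. Fitting only the groups compared left 1 gene for 5-ALA against untreated, in place of 2.

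Leaving out 1 array gave 7 to 10 members and 3810 to 5025 genes for FECH siRNA against control siRNA, and 7 to 11 members and 3666 to 4876 genes for FECH siRNA against 5-ALA only. For 5-ALA against untreated it gave 0 to 0 members and 2 to 3 genes. For control siRNA against 5-ALA only it gave 1 to 1 member and 350 to 1032 genes, in place of 753. Without 5-ALA only replicate 1, 2 or 3 that count was 426, 487 or 367, and without control siRNA replicate 1, 2 or 3 it was 493, 350 or 426. With 3 arrays a group, the intervals of the members were 0.23 to 0.83 wide on the log2 scale, which limits the differences that could be detected.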
